A study of Homo sapiens with 3 samples.

Results

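Serum response factor, encoded by SRF, and 9 actin and contractile genes of its circle were followed in the lung adenocarcinoma line NCI-H23 with and without knockdown of USP16. The USP16 protein is a protease that takes ubiquitin off histone H2A. The genes are ACTA2, ACTB, ACTG1, TAGLN, CNN1, MYL9, TPM1, TPM2, ACTN1 and SRF. They were found by gene name, and each of the 10 matched 1 of the 50868 genes in the count files. The control group was 1 library from cells transfected with control siRNA, and the knockdown group was 2 libraries from cells transfected with USP16 siRNA. All cells were thus transfected, and the time after transfection is not given in the sources used here. The labels number the knockdown libraries 1 and 2 and do not say whether these are different siRNAs or separate cultures, so every p-value here rests on a spread between samples that could be technical only. In the header of the library 2 file the count column bears the number 6.

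SRF is a transcription factor that binds a short DNA element, the CArG box. It works with 2 kinds of partner. Myocardin and the myocardin-related factors MKL1 and MKL2 (also called MRTFA and MRTFB) carry signals from the actin cytoskeleton and drive genes of contraction and adhesion. The ternary complex factors ELK1, ELK3 and ELK4 carry signals from growth factors and drive immediate-early genes. ACTA2, CNN1 and TAGLN are used as markers of smooth muscle cells and of fibroblasts that have become contractile, while ACTB and ACTG1 are the actins of nearly every cell.

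The libraries held 13956382 to 15071179 counts, and all 10 genes passed the filter on low counts, as did 17287 genes in all. USP16 had 632 counts in the control, 109 in knockdown library 1 and 245 in library 2, levels 83.8% and 66.8% below the control, so the remaining USP16 was higher in library 2. The epithelial keratins KRT8 (2214, 1118 and 1880 counts in the control, library 1 and library 2) and KRT18 (2903, 1986 and 3364) were present in every library. Lung markers were low, with 6, 4 and 10 counts for NKX2-1, a lung lineage factor, and 0 in each library for SFTPB, a surfactant protein gene. In the same order, the 10 epithelial and lung markers summed to 413, 241 and 367 CPM (counts per 1000000 counts of the library, after scaling).

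None of the 10 genes passed the test over all genes (edgeR quasi-likelihood test, adjusted p between 0.984 and 0.999), where 0.0174% of all genes tested were called. An unadjusted p under 0.05 was found for 2 of them, ACTA2 and ACTG1, against 4.88% of all genes, and DESeq2 called 0 of the 10 (0.0752% of all genes), with 1 under 0.05 unadjusted (2.89% of all genes). The gene under 0.05 by DESeq2 was ACTA2. ACTG1 was not under 0.05 by DESeq2, and by edgeR it was so with some settings but not with total-count or upper-quartile scaling. The edgeR fit took its spread from the pair of knockdown libraries alone (1 residual degree of freedom), on the assumption that a control would vary as they do. The silenced gene USP16, 83.8% and 66.8% below the control, did not pass the edgeR threshold either. The lack of a call for a gene is thus no sign that it did not change. The values below are therefore a description of 3 libraries, and in bulk RNA more cells that express a gene and more RNA in each cell cannot be told apart. Changes are log2 differences of CPM from the control, given for library 1 and then library 2. Intervals are 95% intervals that cover counting error only.

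The 10 genes did not move as a block. ACTA2 was higher in both knockdown libraries, against 33.4% of all genes, and ACTG1 and ACTN1 were lower in both, against 33.5%. The other 7 were lower in library 1 and higher in library 2, a pattern found in 16.3% of all genes. For ACTB and TAGLN the library 1 value lay near 0 and its sign turned with the scaling. The count of 7 was 6 with upper-quartile scaling and 5 with total counts. The median change of the 10 was -0.35 in library 1 and 0.71 in library 2, beside 0.00 in both for all genes tested. A change of at least 2-fold in the same direction was seen for 1 gene upward, ACTA2 (3.75% of all genes), and for 0 downward (1.68% of all genes).

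**Figure D1:**
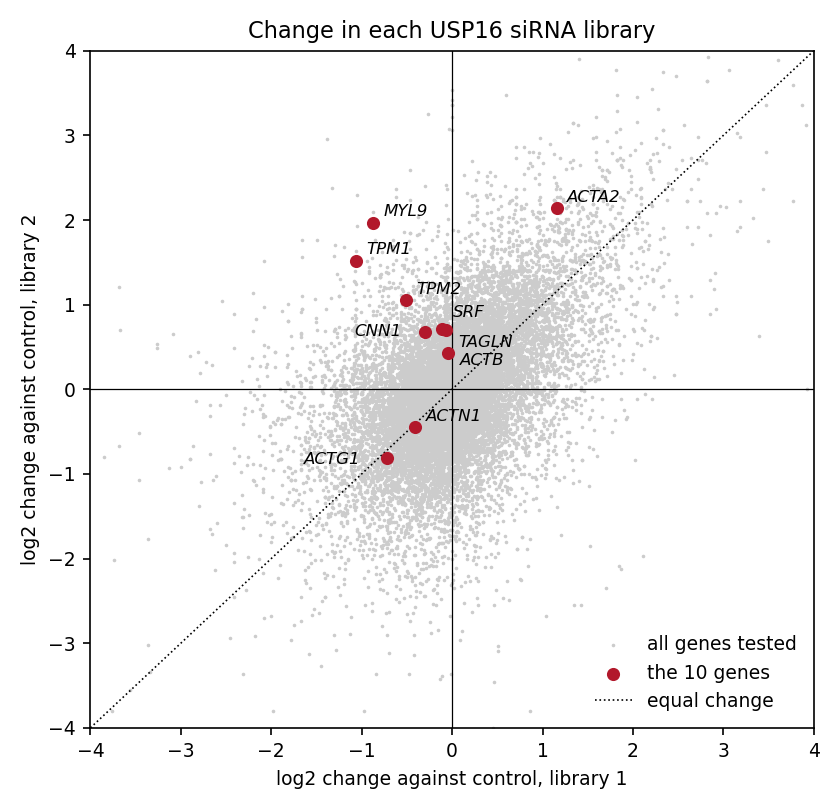
Log2 change against the control in knockdown library 1 (horizontal axis) and library 2 (vertical axis), with all genes tested in grey and the 10 genes in red; 32 genes lie beyond the axes. MYL9, TPM1 and TPM2 sit in the upper left, ACTG1 and ACTN1 near the line of equal change, and ACTA2 in the upper right. Both axes share the 1 control library.

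SRF itself lies on chromosome 6 of hg38, from 43171299 to 43181507 on the plus strand (ENSG00000112658; positions here are those of GENCODE 29). Its counts were 1021 in the control, 1007 in library 1 and 1957 in library 2. Scaled, SRF stood at 76.7 CPM in the control (72.1 to 81.5), 71.1 in library 1 (66.7 to 75.6) and 126 in library 2 (120 to 131). The control and library 1 intervals overlapped and library 2 stood above both. Its changes were -0.11 and 0.71. Their mean, 0.30 ± 0.58 (SD, n = 2), was smaller than the spread between the knockdown libraries.

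SRF is known as a target of its own protein. The CArG box, written as 2 C, 6 bases that are each A or T, and 2 G, was searched in RefSeq promoter windows (GRCh38.p14, the same build as hg38) that run from 250 bases before to 50 bases from the start of a gene. The form is its own reverse complement, so a search of the given strand covers both strands. Of 35116 windows, 454 (1.29%) held a box, and 17.9% held a sequence 1 base away from that form, a search added after the exact one found none in ACTA2. Windows were matched by symbol for 7 of the 10 genes, and not for ACTB, TAGLN and MYL9. Of the 13 windows of those 7 genes, 3 held a box, in ACTG1, ACTN1 and SRF, and 3 held a sequence 1 base away, in ACTA2, ACTN1 and SRF. CNN1, TPM1 and TPM2 had neither in their windows, which says nothing of boxes elsewhere. Among 60 windows of 26 other genes listed as targets of SRF with its myocardin-related partners, 12 held a box, in 10 genes. Of the same 60 windows, 19 held a sequence 1 base away, in 11 genes. A match is only a run of letters, and no binding was measured here.

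The stretches that hold these sequences are shown because SRF and ACTA2, the regulator and the gene with the highest mean change of the 10, carry a pair each, in different forms. Of all windows, 0.0313% held 2 or more boxes and 3.16% held 2 or more sequences 1 base away. The 150-base stretches of SRF and ACTA2 end at the base before the annotated start. Capitals mark the box or the sequence 1 base away from it. The SRF stretch is chr6:43171119-43171268 on the plus strand, with exact boxes that begin 30 and 10 bases before the start. The ACTA2 stretch is chr10:88952774-88952923 on the minus strand, before the downstream start of that gene. Its sequences begin 121 and 71 bases before the start, and each departs from the form at 1 base, the third and the fifth. For ACTG1 (chr17:81512884-81512893, minus strand, 94 bases before the start) and ACTN1 (chr14:68977728-68977737, minus strand, 171 bases before the third of its starts) only the box with 10 bases on each side is shown.
SRF: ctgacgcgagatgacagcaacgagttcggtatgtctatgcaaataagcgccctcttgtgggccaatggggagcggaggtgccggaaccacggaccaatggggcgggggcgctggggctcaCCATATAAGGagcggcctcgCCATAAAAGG
ACTA2: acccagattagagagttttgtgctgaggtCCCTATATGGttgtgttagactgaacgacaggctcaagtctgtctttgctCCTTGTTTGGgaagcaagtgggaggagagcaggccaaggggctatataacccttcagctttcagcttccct
ACTG1: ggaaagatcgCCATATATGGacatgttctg
ACTN1: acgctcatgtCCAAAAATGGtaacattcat

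**Figure D2:**
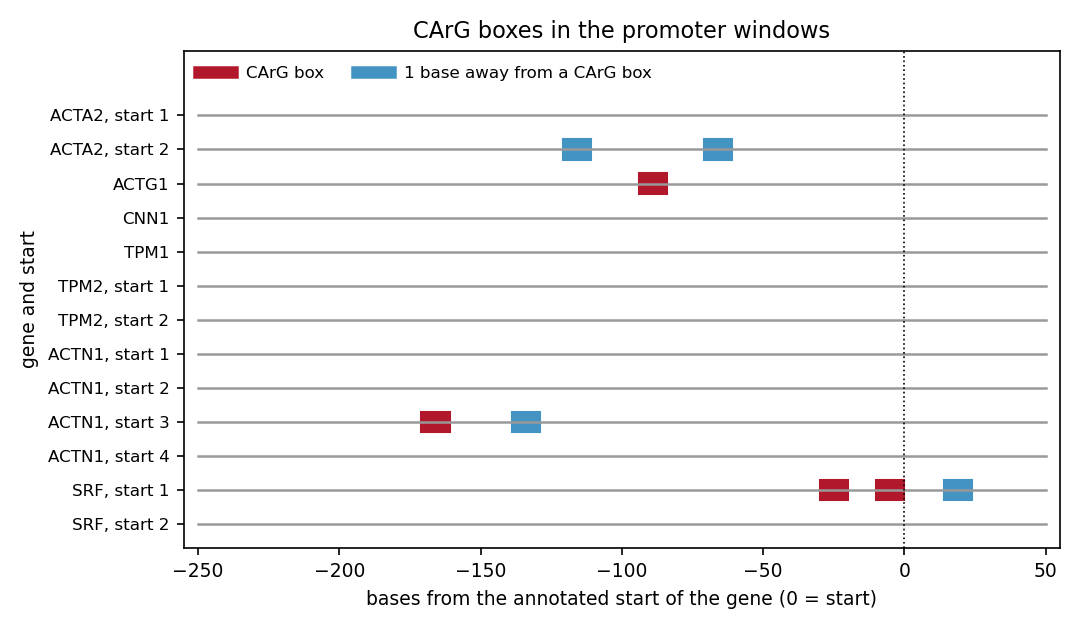
Promoter windows of the 7 genes with an entry, 1 line for each annotated start, with the distance from the start in bases on the horizontal axis. Red blocks are CArG boxes and blue blocks are sequences 1 base away from that form. SRF has a pair of boxes just before its first start, and ACTA2 has a pair of blue blocks at its second start only.

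Smooth muscle alpha-actin, encoded by ACTA2, was the gene of the 10 that was higher in both knockdown libraries. It lies on chromosome 10 from 88935074 to 88991339 on the minus strand (ENSG00000107796). It had 47 counts in the control, 114 in library 1 and 249 in library 2. The level was 3.53 CPM in the control (2.59 to 4.69), 8.04 in library 1 (6.64 to 9.66) and 16.0 in library 2 (14.1 to 18.1), and no interval overlapped another. The fold against the control was 2.28 in library 1 (1.61 to 3.27) and 4.54 in library 2 (3.31 to 6.33). On the log2 scale the changes were 1.16 and 2.14, a mean of 1.65 ± 0.69 (SD, n = 2; edgeR adjusted p = 0.984).

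The level of ACTA2 stayed low beside the cytoplasmic actins, and part of its locus is shared. Its exons overlap those of FAS, a death receptor gene on the opposite strand, over 380 bases, and those of the antisense RNA ACTA2-AS1 over 516 bases. FAS had 414, 349 and 493 counts and ACTA2-AS1 had 10, 10 and 8, neither with the steps of ACTA2. STAMBPL1, also on the opposite strand with no shared exon base, had 433, 422 and 446. Whether the counting used strand is not given in the sources used here, so reads in these stretches cannot be assigned with certainty. Several other smooth muscle genes were at or near 0. MYH11, the smooth muscle myosin heavy chain, had 3, 1 and 1 counts, LMOD1, an actin nucleator of smooth muscle, had 1, 0 and 2, and DES, a muscle intermediate filament gene, had 3, 1 and 9. The 9 smooth muscle markers, ACTA2 and CNN1 among them, summed to 86.8, 88.3 and 79.1 CPM. Most of that sum came from SMTN, a cytoskeletal protein of smooth muscle, with 723, 554 and 713 counts, and from SYNPO2, an actin-binding protein, with 354, 552 and 152. The listed MYOCD, the myocardin gene (2, 14 and 25 counts), and ACTG2 (3, 0 and 42) were near 0 in the control and highest in library 2. The 6 markers that passed the filter had median changes of 0.12 and 1.41. Of these 6, 2 (ACTA2 and MYOCD) were at least 2-fold higher in both knockdown libraries (3.75% of all genes). MYOCD and ACTG2 passed the filter only through knockdown libraries, where they are high. The medians and the count of 2 are thus partly set by the filter, and no conclusion is drawn from them.

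The cytoplasmic actins went different ways. ACTB, beta-actin, lies on chromosome 7 from 5527147 to 5563784 on the minus strand (ENSG00000075624). It had 30610, 31465 and 48302 counts, or 2299, 2220 and 3106 CPM, so library 2 was 1.35-fold above the control (1.33 to 1.37) and library 1 close to it. The change was -0.05 and 0.43, a mean of 0.19 ± 0.34 (SD, n = 2), within the spread between libraries. ACTG1, gamma-actin, lies on chromosome 17 from 81509971 to 81523847 on the minus strand (ENSG00000184009). It had 18221, 11738 and 12152 counts, or 1369, 828 and 781 CPM, and was lower in both knockdown libraries by similar amounts, -0.72 and -0.81. Both changes share the control library, so the spread between them holds no variation of the control. The mean of -0.77 ± 0.06 (SD, n = 2) was larger than the spread between the knockdown libraries, and the gene did not pass the test (edgeR adjusted p = 0.999).

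The ACTB share of the actin counts was lowest in the control library. Of all counts on the 7 actin genes, ACTB held 62.6% in the control (Wilson interval 62.2 to 63.0), 72.6% in library 1 (72.2 to 73.0) and 79.5% in library 2 (79.2 to 79.8). ACTG1 held 37.3%, 27.1% and 20%, and ACTA2 0.0962%, 0.263% and 0.410%. These shares were not tested. The pseudogenes named after ACTB and ACTG1 summed to at most 0.749% of the counts of their parent, the largest being ACTG1P1 (3, 7 and 31 counts) and ACTG1P20 (18, 7 and 24), and adding them moved the ACTB share by less than its interval.

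The other muscle actins were barely detected. ACTG2, of visceral smooth muscle, had 3, 0 and 42 counts, a ratio to the control of 12.0 in library 2 (3.83 to 60.4). ACTA1, of skeletal muscle, had 0, 10 and 8 counts, at least 3.13-fold and 2.28-fold higher than the control when the control is set to 3 counts. ACTC1, of heart muscle, had 0, 1 and 1. ACTBL2, a beta-actin-like gene, had 0, 0 and 2. Actin coding regions are similar, and how the counting treated reads that match more than 1 of them is not given in the sources used here. These low values are therefore uncertain.

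**Figure D3:**
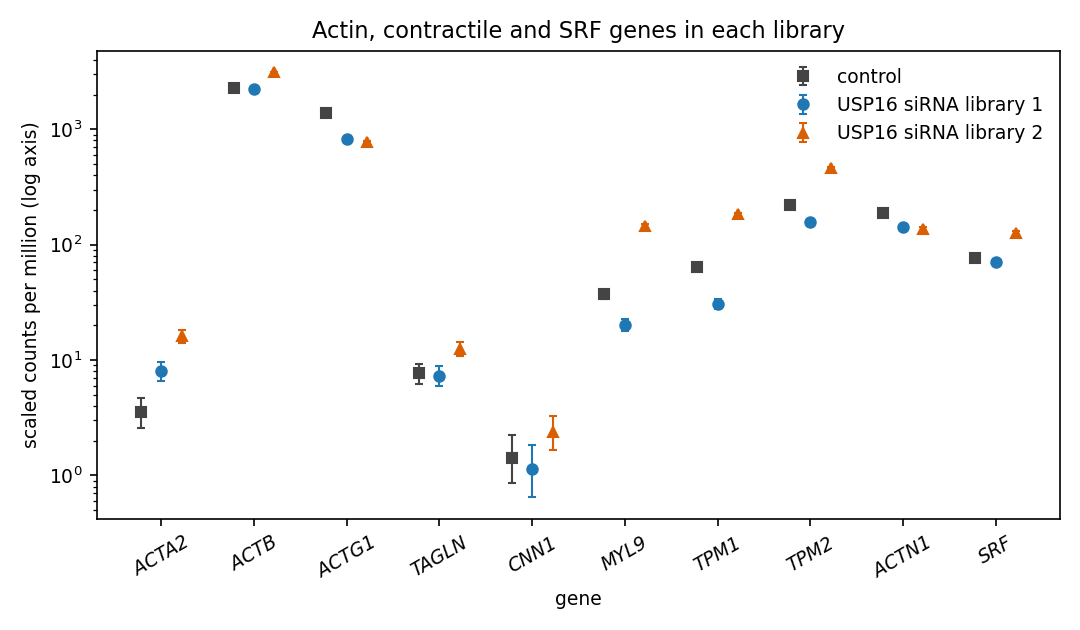
CPM on a log axis for the 10 genes, with the control as squares, knockdown library 1 as circles and library 2 as triangles; bars are 95% Poisson intervals for counting error. Library 2 is the highest of the 3 for all but ACTG1 and ACTN1, which are highest in the control. The share of all genes tested that are highest in library 2 was not counted.

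Tropomyosins lie along the actin filament and set which proteins reach it. Among the 10 genes, TPM1 and TPM2 had the widest gaps between the knockdown libraries after MYL9. TPM1 lies on chromosome 15 from 63042632 to 63071915 on the plus strand (ENSG00000140416). It had 849, 432 and 2839 counts, or 63.8, 30.5 and 182 CPM. Library 1 was 0.478 times the control (0.425 to 0.537) and library 2 was 2.86 times the control (2.65 to 3.09). The changes of -1.06 and 1.52 average to 0.23 ± 1.82 (SD, n = 2), so the mean describes neither library.

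TPM2, on chromosome 9 from 35681992 to 35690121 on the minus strand (ENSG00000198467), had the same order with smaller steps. It had 2961, 2219 and 7151 counts, or 222, 157 and 460 CPM, with changes of -0.51 and 1.05. The mean was 0.27 ± 1.10 (SD, n = 2). In both genes library 1 lay below the control and library 2 above it, outside the counting intervals.

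TPM4, a tropomyosin of non-muscle cells and a listed SRF target that is not among the 10 genes, was higher in both knockdown libraries. It had 1754, 5911 and 11782 counts, with changes of 1.66 and 2.52 and a mean of 2.09 ± 0.61 (SD, n = 2; edgeR adjusted p = 0.459). TPM3, also widely expressed, had 6805, 4128 and 6936 counts, with changes of -0.81 and -0.20. Per length of exon, TPM1 made up 3.31% of the 4 tropomyosins in the control, 1.77% in library 1 and 4.78% in library 2, and TPM2 made up 45.8%, 36.1% and 47.7%. TPM4 made up 10.2%, 36.2% and 29.6%, and TPM3 40.7%, 26.0% and 17.9%. The summed level of the 4 genes was 929 CPM in the control, 895 in library 1 and 1846 in library 2. Tropomyosin genes make many splice forms, which counts per gene do not separate.

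MYL9, a regulatory light chain of smooth muscle and non-muscle myosin, had the largest gap between the knockdown libraries among the 10 genes. It lies on chromosome 20 from 36541484 to 36551447 on the plus strand (ENSG00000101335). Counts were 495 in the control, 287 in library 1 and 2273 in library 2, or 37.2, 20.2 and 146 CPM. Library 1 was 0.545 times the control (0.469 to 0.631) and library 2 was 3.93 times the control (3.57 to 4.34). The changes of -0.87 and 1.97 gave a mean of 0.55 ± 2.01 (SD, n = 2). Library 2 stood 7.22-fold above library 1 (6.38 to 8.19) for MYL9, 5.99-fold for TPM1 (5.41 to 6.64) and 2.94-fold for TPM2 (2.80 to 3.08). These 3 of the 10 were at least 2-fold higher in library 2 than in library 1 on the log2 scale with its prior count, against 7.71% of all genes. Each side of that comparison is 1 library, so it was not tested.

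The close relatives of MYL9 were also lowest in library 1, with smaller steps. MYL12A had 7560, 4478 and 9625 counts (-0.85 and 0.12) and MYL12B had 8299, 6650 and 8867 (-0.41 and -0.13). Of the counts on these 3 light chains, MYL9 held 3.03% in the control (Wilson interval 2.78 to 3.30), 2.51% in library 1 (2.24 to 2.82) and 10.9% in library 2 (10.5 to 11.4). The essential light chain MYL6 had 3390, 4129 and 5138 counts (0.19 and 0.38), and its relative MYL6B had 568, 416 and 475 (-0.54 and -0.48).

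**Figure D4:**
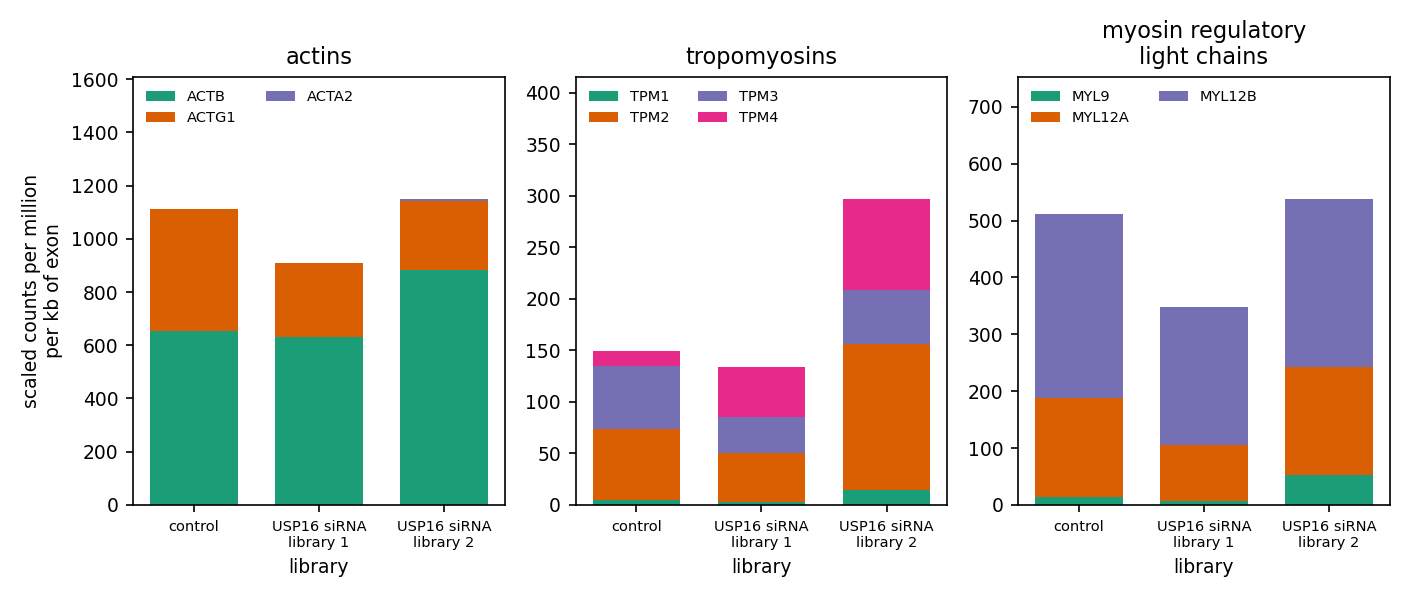
Levels in CPM per kilobase of exon for actins, tropomyosins and myosin regulatory light chains, stacked for each library from 0. The TPM4 block is smallest in the control, and the MYL9 block is largest in library 2.

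TAGLN and CNN1, which encode the actin-binding proteins transgelin and calponin 1, were low and imprecise. TAGLN, on chromosome 11 from 117199321 to 117204782 on the plus strand (ENSG00000149591), had 102, 103 and 195 counts, or 7.66 CPM (6.25 to 9.30), 7.27 (5.93 to 8.81) and 12.5 (10.8 to 14.4). Library 2 lay above the others and the changes were -0.07 and 0.70, a mean of 0.31 ± 0.55 (SD, n = 2). Its exons share 446 bases with PCSK7, a protease gene on the opposite strand with 597, 723 and 790 counts. CNN1, on chromosome 19 from 11538717 to 11550323 on the plus strand (ENSG00000130176), had 19, 16 and 37 counts, and the intervals of library 2 (1.68 to 3.28 CPM) and the control (0.859 to 2.23) overlapped. With changes of -0.30 and 0.68 and a mean of 0.19 ± 0.70 (SD, n = 2), a difference of CNN1 from the control was not detectable at this depth.

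The more abundant relatives of these genes had other patterns. TAGLN2 had 9289, 7573 and 5416 counts, 0.766 and 0.499 times the control in the knockdown libraries, while TAGLN3 had 0 in each. The TAGLN share of transgelin counts was 1.09% in the control (Wilson interval 0.896 to 1.32), 1.34% in library 1 (1.11 to 1.63) and 3.48% in library 2 (3.03 to 3.99). CNN2 had 2325, 1704 and 2805 counts (-0.54 and 0.05) and CNN3 had 603, 536 and 894 (-0.26 and 0.34).

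ACTN1, alpha-actinin 1, crosslinks actin filaments at adhesions and was lower in both knockdown libraries. It lies on chromosome 14 from 68874143 to 68979440 on the minus strand (ENSG00000072110). It had 2490, 2001 and 2130 counts, or 187 CPM (180 to 195), 141 (135 to 148) and 137 (131 to 143). The intervals of the knockdown libraries overlapped each other and lay below the control. The changes of -0.41 and -0.45 gave a mean of -0.43 ± 0.03 (SD, n = 2; edgeR adjusted p = 0.999). Its relative ACTN4 had 5533, 3678 and 6586 counts (-0.68 and 0.03), so the ACTN1 share of actinin counts was 31.0%, 35.0% and 24.4%. The muscle forms ACTN2 and ACTN3 had 19, 41 and 22 counts and 0, 5 and 7. Over the 11 tested relatives of the tropomyosins, calponins, transgelins, light chains and actinins, 2 were higher in both knockdown libraries (TPM4 and MYL6), 4 were lower in both and 5 differed in sign. Their medians were -0.41 and 0.03, and 0 passed the edgeR or DESeq2 threshold, with 1 under 0.05 unadjusted by each tool (4.88% and 2.89% of all genes).

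Set against each other per kilobase of exon, the 10 genes of the control spanned from ACTB at 653 CPM per kb to CNN1 at 0.494. ACTG1 followed ACTB at 457, then TPM2 at 68.5, SRF at 18.2 and ACTN1 at 17.6. SRF (17.2 to 19.4) and ACTN1 (16.9 to 18.3) could not be told apart by their intervals. MYL9 was at 13.2, TPM1 at 4.95, TAGLN at 1.96 and ACTA2 at 1.19. In library 2 ACTA2, at 5.38 (4.73 to 6.09), stood above TAGLN, at 3.20 (2.77 to 3.68), and in library 1 it stood at 2.70 (2.23 to 3.25) against 1.86 (1.51 to 2.25), where the intervals overlapped. With the longest transcript as length the control order of ACTA2 and TAGLN, of MYL9 and TPM1, and of SRF and ACTN1 was exchanged.

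The partners of SRF differed in direction. The myocardin-related factors MKL1 and MKL2 had 757, 494 and 821 counts (-0.70 and -0.11) and 1675, 1047 and 1193 (-0.77 and -0.71). MYOCD, which encodes myocardin, was near the limit of detection with 2, 14 and 25 counts, a ratio to the control of 6.58 (1.51 to 59.6) and 10.7 (2.67 to 93.2). Among the ternary complex factors, ELK3 was lower in both libraries with 1289, 635 and 766 counts (-1.11 and -0.97). ELK1 had 1137, 1225 and 399 counts (0.02 and -1.73) and ELK4 had 842, 1011 and 1550 (0.17 and 0.65). Of these 6 cofactors, 0 passed the edgeR test, with 2 under 0.05 unadjusted (4.88% of all genes), and DESeq2 called 0, with 1 under 0.05 unadjusted (2.89% of all genes). MYOCD passed the filter only through the knockdown libraries, so its place in these counts was favoured by the filter. The cofactor list was compiled with earlier results of these data known.

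Other listed targets of SRF with its myocardin-related partners were mixed. Of 30 listed, 26 passed the filter, of which 6 were higher in both knockdown libraries, 10 lower in both, 7 lower in library 1 and higher in library 2, and 3 the reverse. Their median change was -0.32 and 0.01, beside 0.00 in both libraries for all genes. By edgeR 0 passed, with 6 of the 26 under 0.05 unadjusted, beside 4.88% of all genes. By DESeq2 0 passed, with 3 under 0.05 unadjusted, beside 2.89% of all genes. ANKRD1, FILIP1L and ACTG2 passed the filter only through knockdown libraries, where they are high. Their place in these counts was thus favoured by the filter. PDLIM5, a scaffold of the actin cytoskeleton, had 2982, 861 and 1592 counts (-1.88 and -1.13). ITGA5, the fibronectin receptor chain, had 6895, 2738 and 3881 (-1.42 and -1.05). On the higher side, TUFT1 had 183, 360 and 488 counts (0.88 and 1.18), and FILIP1L had 2, 8 and 13. ANKRD1, a muscle stress protein gene, had 1, 17 and 20 counts. It was 16.0 times the control in library 1 (2.50 to 667) and 17.1 times in library 2 (2.74 to 710).

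Among the 13 immediate-early genes listed as targets of SRF with the ternary complex factors, the median change was -0.39 and -0.22. Of them, 2 were higher in both libraries, 6 lower in both and 5 opposite in sign, with 0 past the threshold of edgeR or DESeq2. Unadjusted, 1 of the 13 was under 0.05 by edgeR (4.88% of all genes) and 0 by DESeq2 (2.89% of all genes). MCL1, a survival factor, had 13976, 8038 and 9055 counts (-0.89 and -0.85), and JUNB, an AP-1 subunit that stands in both target lists, had 4566, 2254 and 3686 (-1.11 and -0.53). IER2 stood apart in library 1 with 528, 2144 and 484 counts. NR4A1, a nuclear receptor, had 771, 488 and 686 counts (-0.75 and -0.39). EGR3, a zinc finger factor, had 29, 18 and 26, and DUSP5, a phosphatase of ERK, had 211, 158 and 194. EGR1, whose promoter is a textbook SRF target, had 3182, 3751 and 3186 (0.15 and -0.22, named after its values were seen).

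**Figure D5:**
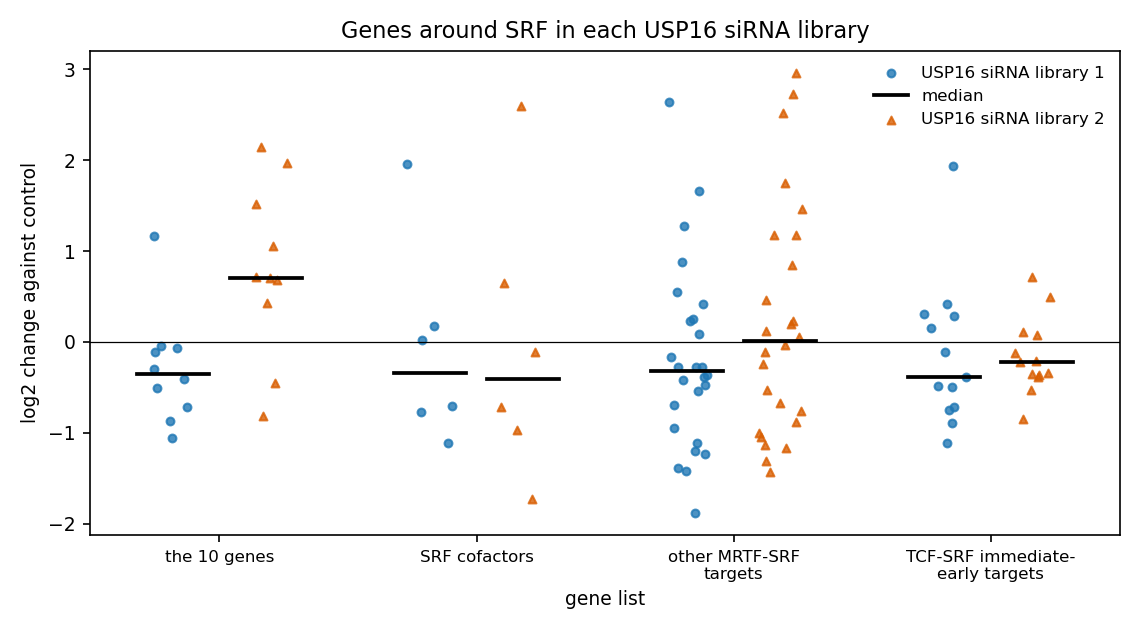
Log2 change against the control in each knockdown library for the 10 genes and 3 lists around SRF, with 1 point for each gene that passed the filter and a bar at the median. SRF is plotted with the 10 genes and with the immediate-early targets, and JUNB with both target lists. The medians of the 10 genes are -0.35 and 0.71, and those of the other lists lie between -0.41 and 0.01.

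Markers of other cell types were read beside ACTA2, since that gene is also high in fibroblasts that have become contractile. The 8 fibroblast markers summed to 82.1, 78.9 and 69.4 CPM, most of it COL1A1, a chain of type I collagen, with 918, 881 and 700 counts. COL3A1, a fibrillar collagen, had 19, 67 and 94 counts, and LUM, the matrix proteoglycan lumican, had 20, 26 and 140. PDGFRA had 47, 55 and 27 counts (0.13 and -0.97), PDGFRB 42, 40 and 72 (-0.15 and 0.53) and THY1 42, 40 and 38 (-0.15 and -0.35). Of the 6 fibroblast markers that passed the filter, 2 were higher in both knockdown libraries (33.4% of all genes). Another 2 were lower in both (33.5% of all genes) and 2 differed in sign. COL1A2 had 5, 7 and 6 counts and DCN, which encodes decorin, 0, 2 and 2. The 4 endothelial markers summed to 0.451, 0.494 and 0.772 CPM and the 6 immune markers to 12.8, 19.1 and 12.3. The 9 striated muscle markers summed to 91.8, 123 and 98.2 CPM, nearly all of it the troponins TNNT1 and TNNI3, with MYOG at 0 in each library. Of the 8 epithelial and lung markers that passed the filter, 7 were lower in both knockdown libraries (33.5% of all genes). The remaining 1 was higher in both (33.4% of all genes). For KRT18 the library 2 change (-0.01) and for NAPSA the library 1 change (-0.08) lay near 0, so their signs are uncertain. Among the lower, KRT7, a keratin, had 81, 23 and 49 counts (-1.82 and -0.92), CDH1, which encodes E-cadherin, had 142, 39 and 93 (-1.90 and -0.82), and CLDN4, a tight junction gene, had 30, 9 and 23 (-1.63 and -0.56). The exception was EPCAM, an epithelial adhesion gene, with 38, 161 and 232 counts (1.94 and 2.33). The part of any of these in the ACTA2 values was not tested.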

How the data were processed

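RNA sequencing counts from 3 NCI-H23 libraries, made with an mRNA-seq kit per the labels, were used. The deposited files hold whole-number read counts per gene, not normalized, and per the submitters' processing notes HISAT2 2.0.4, StringTie 1.3.0 and hg38 were used, with no role stated. Which tool counted the reads, on which annotation and whether by strand, is not given in the sources used here. The members and gene lists were chosen with earlier results of these data known.

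Genes were filtered with filterByExpr, which can keep a gene through 1 library alone, and scaled by trimmed means of M-values (factors 0.952, 1.02 and 1.03). Knockdown (2 libraries) was tested against control (1 library) in edgeR 4.0.16 (R 4.3.3) with its quasi-likelihood test across all genes. P-values were adjusted by Benjamini-Hochberg and called under 0.05. Log2 changes per library use a prior count of 2. An SD over 2 changes holds no variation of the control, which both share. The analysis was also run on simulated data with a fixed spread for all genes, which does not show how the test performs on these libraries. Intervals are exact Poisson for counts, exact binomial for ratios and Wilson for shares (95%). Lengths, positions and overlaps came from GENCODE 29 (hg38), with union exon length as gene length. Promoter windows came from RefSeq.

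Named genes were USP16, all 10 members, the cofactors and close paralogs, up to 6 genes of each list with the largest mean change, and overlapping genes and member pseudogenes with at least 20 counts in some library. Others were named after their values were seen: ACTA2-AS1, low markers and the genes quoted to describe a list. Another gene list is not reported here. Alternatives were no filter, a minimum mean of 100 counts, median-ratio, upper-quartile and total-count scaling, a prior count of 10, DESeq2 1.42.0, leaving out each knockdown library, the longest transcript as length, and adding pseudogene counts.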

Additional observations from a re-analysis of the deposited data

How the results depend on the processing

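The mean change of each of the 10 genes kept its sign, and none passed the threshold, in the 69 values from 7 other settings, with adjusted p from 0.498 to 1 (CNN1 had too few counts for the minimum mean of 100). The size of the change moved most with DESeq2 for MYL9 (0.55 to 1.17), TPM1 (0.23 to 0.75) and TPM2 (0.27 to 0.48), whose knockdown libraries differ in sign. Leaving out a knockdown library leaves 1 library against 1 and no test. The ACTA2 change was then 1.16 to 2.14, ACTG1 -0.80 to -0.72, ACTN1 -0.44 to -0.41, ACTB -0.05 to 0.44, TAGLN -0.07 to 0.71, CNN1 -0.30 to 0.69, MYL9 -0.87 to 1.98, TPM1 -1.06 to 1.52, TPM2 -0.51 to 1.05 and SRF -0.11 to 0.72, so the sign of the last 7 depends on which library is kept. The count of genes called among all genes was 3 (0 higher, 3 lower). It became 70 (40 and 30) without the low-count filter, 1 with a minimum mean of 100 counts, 9 (4 and 5) with total-count scaling and 13 (7 and 6) with DESeq2, and the cause was not tested. Genes 2-fold in the same direction in both libraries numbered 649 higher and 290 lower, 286 and 178 with a prior count of 10, which shrinks low counts, and 829 and 215 with total-count scaling. With the longest transcript as length, the control levels per kb were 1024 for ACTB, 607 for ACTG1, 141 for TPM2, 40.0 for ACTN1, 16.1 for TPM1, 2.62 for ACTA2 and 0.772 for CNN1, higher because the length is shorter. The median change of all genes was -0.02 and moved to 0.09 with total counts and 0.10 with DESeq2. No paired analysis was possible because the control is 1 library whose label carries no number. Low counts limit the precision most for CNN1 among the 10 genes (19 in the control), and also for ACTA2 (47) and TAGLN (102).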
